A study of Mus musculus with 9 samples.

Results

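Lin28b, Trim71, the Igf2bp genes Igf2bp1, Igf2bp2 and Igf2bp3, the Hmga genes Hmga1 and Hmga2, and the Myc genes Myc, Mycn and Mycl were followed from spermatogonial stem cells into induced pluripotent stem cells (iPSC). These 10 genes were found by the coordinates of the deposited loci, and each had a locus of its own among the 54913 loci with values and the 10972 genes to which a locus could be assigned by position. RNA was sequenced from 9 mouse samples, 3 in each group. Spermatogonial stem cells (SSC) were the primary testis cells of mouse pups in the first postnatal week that were caught by magnetic sorting for the receptor Gfra1. SSCiPSC were clonal lines reprogrammed from SSC, and fiPSC were clonal lines reprogrammed from the fibroblasts of male fetuses. All groups came from a strain that carries rtTA*M2 at the Rosa26 locus and a doxycycline-driven (tetO) cassette of Pou5f1, Sox2, Klf4 and Myc at Col1a1, so the SSC carry it too. The labels put SSC at passage 0 and both iPSC groups at passages 10 to 11, and their growth text names medium with LIF and doxycycline. The study's methods instead describe a later passage, withdrawal of doxycycline, and sorting of the iPSC for SSEA1 to keep feeder cells few. The loci of Myc, Pou5f1 and Klf4 are therefore read with the limit that RNA of the cassette and of the endogenous gene cannot be told apart. The labels do not say whether samples of a group came from separate animals or lines, so a p-value measures only the spread between these samples.

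Lin28b and its relative Lin28a are RNA-binding proteins that block the maturation of the let-7 microRNAs, which in turn repress Lin28b, Trim71, Hmga2, the Igf2bp genes and other transcripts that are abundant in early embryos. Trim71 is an RNA-binding ubiquitin ligase of early embryonic and stem cells. Igf2bp1 to Igf2bp3 bind and stabilise messenger RNAs, the Hmga proteins bend and open chromatin at AT-rich DNA, and the Myc proteins pair with Max to activate genes of growth and the cell cycle. In the testis, Lin28 and Myc family genes are known from undifferentiated spermatogonia, and in pluripotent cells Mycn and Myc are known to overlap in function.

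The seed of let-7 (bases 2 to 8, in capitals) is shown because it is the part that pairs with these transcripts. It was the same in 10 of the 11 let-7 and miR-98 mature sequences of the guide arm in RefSeq (GRCm38.p6), and let-7j differed in its last base. MicroRNAs themselves were not measured in these libraries.
let-7a-5p: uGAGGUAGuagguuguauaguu
let-7d-5p: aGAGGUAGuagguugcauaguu
let-7g-5p: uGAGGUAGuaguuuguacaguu
miR-98-5p: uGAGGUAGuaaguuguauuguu
let-7j: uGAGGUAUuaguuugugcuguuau

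The 7-letter match to this seed, CTACCTC on the transcript's strand, was searched in the longest annotated 3′ UTR of each gene (GENCODE M21, GRCm38). It occurred in 7 of the 10 genes with 19 sites in all, beside 9.03% of 21004 protein-coding genes with a 3′ UTR. Sites of these genes are shown with the match in capitals, since they show where and in what surroundings it occurs.
Hmga2 site 1: ccgacattcaatttCTACCTCagca
Hmga2 site 2: cccactcctcaataCTACCTCtgaa
Hmga2 site 3: tgatttgcaaggaaCTACCTCcaca
Hmga2 site 4: atcaaaacacactaCTACCTCttaa
Lin28b site 1: cccgggcgggaagtCTACCTCatgc
Trim71 site 1: acattgcctaagtcCTACCTCagct
Igf2bp1 site 1: ctgtgcgaagtaaaCTACCTCaagg
Igf2bp2: cacacaaataaaagCTACCTCaggt
Igf2bp3: gcatttttactcaaCTACCTCaggt
Hmga1: cctctgttcacaaaCTACCTCtgga

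All of these windows lie in the 3′ UTR within 1 exon. Those of Hmga2 lie at chr10:120364221-120364245, chr10:120362984-120363008, chr10:120362546-120362570 and chr10:120361688-120361712, all on the minus strand. Also on the minus strand are the windows of Lin28b (chr10:45381019-45381043), Trim71 (chr9:114512469-114512493), Igf2bp1 (chr11:95961775-95961799), Igf2bp2 (chr16:22059470-22059494) and Igf2bp3 (chr6:49086784-49086808). The Hmga1 window lies on the plus strand at chr17:27563278-27563302. Lin28b, Trim71, Igf2bp1 and Hmga2 held 4 matches each. Long 3′ UTRs hold more matches by length alone, so each was set beside genes with a 3′ UTR within 20% of its length. At least 4 matches were found in 2 of 1270 such genes for Lin28b (0.157%) and in 3 of 792 for Trim71 (0.379%). They were found in 1 of 563 for Igf2bp1 (0.178%) and in 2 of 2244 for Hmga2 (0.0891%). These sets left out only the gene itself. The 1 gene beside Igf2bp1 is Trim71, and those beside Trim71 include Lin28b and Igf2bp1. Igf2bp2, Igf2bp3 and Hmga1 held 1 match each, and 12.0%, 13.3% and 8.05% of genes with a 3′ UTR of like length held at least 1. Myc, Mycn and Mycl held none, in 3′ UTRs of 466, 913 and 1970 bases, of whose like 3.93%, 6.7% and 12.9% held at least 1, so that holding none is the usual case at these lengths. A match is a run of letters in the annotation and not a measured binding site.

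**Figure D1:**
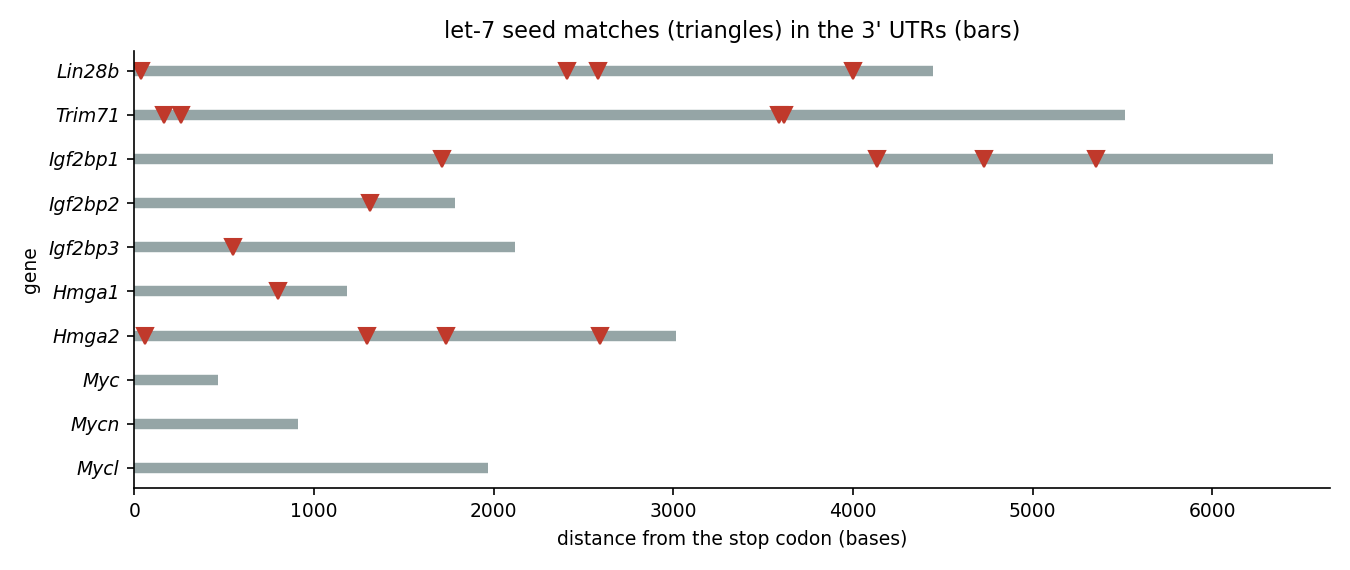
Positions of the let-7 seed match (triangles) along the longest annotated 3′ UTR (bars) of each gene, with the distance from the stop codon in bases on the horizontal axis. Lin28b, Trim71, Igf2bp1 and Hmga2 hold 4 matches each, Igf2bp2, Igf2bp3 and Hmga1 hold 1 each, and the Myc genes hold none.

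The values are FPKM (fragments per kilobase of transcript scaled to the mapped fragments of a library). They allow levels to be set side by side between genes, while differences between groups also depend on how libraries are scaled. The smallest values of each library, at loci of 600 to 6000 bp without strand whose length was shortened by a fitted 140 to 160 bp, lay within 0.1 of whole multiples of what 1 fragment is worth, which put the depth at about 1770000, 4630000 and 1390000 fragments for SSC 1 to 3, 15900000, 13700000 and 14900000 for SSCiPSC, and 13200000, 17500000 and 15500000 for fiPSC. SSC were thus read at a much lower depth than either iPSC group, and 18.9% to 35.4% of all loci were at 0 in SSC against 9.64% to 13.9% in the iPSC. The SSC fraction carried germ line markers, with a mean Dazl level of 210 FPKM, but it was not germ cells alone. All 8 Sertoli markers with a locus were above 1 FPKM in every SSC library (Clu mean 632 FPKM), as were the 3 Leydig and 6 macrophage markers. The summed mast cell markers were 117, 435 and 1187 FPKM in SSC 1, 2 and 3 (most abundant Tpsab1), so SSC 3 stood apart from the other libraries and was also the shallowest. The Sertoli sums were 1229, 1223 and 1030 FPKM, the macrophage sums 42.9, 17.7 and 140 FPKM and the fibroblast sums 111, 106 and 295 FPKM. In both iPSC groups Tpsab1, Tpsb2 and Mcpt4 of the mast cell markers and Cst12 and Defb19 of the Sertoli markers were at 0. The Sertoli sums were still 215 to 303 FPKM in SSCiPSC and 170 to 203 FPKM in fiPSC, nearly all of it Rhox5, a homeobox gene of the X chromosome, which rose from 1.59 FPKM in SSC to 260 and 177 FPKM (limma adjusted p = 2.06e-05 and 1.68e-05). The mast cell sums were 42.5 to 48.4 and 23.9 to 27.8 FPKM, nearly all of it the receptor Kit, also a gene of the germ line, which rose from 9.71 to 46.1 and 25.9 FPKM (adjusted p = 0.000128 and 0.000372). The fibroblast or feeder sums were 143 to 235 FPKM in SSCiPSC and 152 to 181 FPKM in fiPSC. Most of this was Fn1, with means of 161 and 143 FPKM. Col3a1 of the same list had means of 52.0 FPKM in SSC, 9.14 FPKM in SSCiPSC and 9.06 FPKM in fiPSC. The part of feeder cells in the iPSC values was not tested. Nanog was at 0 in all 3 SSC libraries. The summed pluripotency markers reached 1626 to 1668 FPKM in SSCiPSC and 1338 to 1386 FPKM in fiPSC. Every difference from SSC below is therefore a difference from a mixed testis fraction. In bulk RNA, fewer cells of a type and less RNA per cell cannot be told apart, and the part of the somatic cells of the testis in the differences was not tested.

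In SSCiPSC, Igf2bp1, Igf2bp2, Igf2bp3 and Mycn rose over SSC and Myc fell, whereas Lin28b, Trim71, Hmga1, Hmga2 and Mycl did not pass the test. Each gene was compared with limma on log2(FPKM + 1), with p-values adjusted over all loci of at least 1 FPKM in 3 of the 6 libraries compared, and was called at an adjusted p below 0.05. All 10 genes passed this filter in all 3 comparisons. Of the 36544 loci tested between SSCiPSC and SSC, 26.2% were called higher and 24.1% lower, beside 4 higher and 1 lower of the 10 genes. Of the 16833 loci whose mean level in the 9 libraries reached 5 FPKM, as it did for 9 of the 10 genes, 38.2% were called higher and 19.4% lower, so the count of higher genes is near the share of loci of like level. The values of the 3 SSCiPSC and the 3 SSC libraries did not overlap for 6 higher genes and 1 lower gene, beside 31.1% and 28.7% of the loci. The median difference on the log2 scale was 0.94 over the 10 genes, 0.11 over all loci tested and 0.48 over the loci whose mean reached 5 FPKM. Between fiPSC and SSC, 5 genes were called higher (the same Igf2bp genes and Mycn, with Trim71) and 2 lower (Myc and Mycl), beside 28.0% and 23.7% of 38007 loci (38.8% and 21.6% of those whose mean reached 5 FPKM). Here 6 genes were higher and 2 lower without overlap, beside 33.1% and 28.5% of the loci, and the medians were 0.91 for the genes, 0.17 for all loci and 0.43 for loci whose mean reached 5 FPKM. Both comparisons share the SSC libraries. For a single gene, an exact two-sided permutation test of 3 against 3 libraries cannot give a p below 0.1, which is the value it gave for each gene without overlap.

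**Figure D2:**
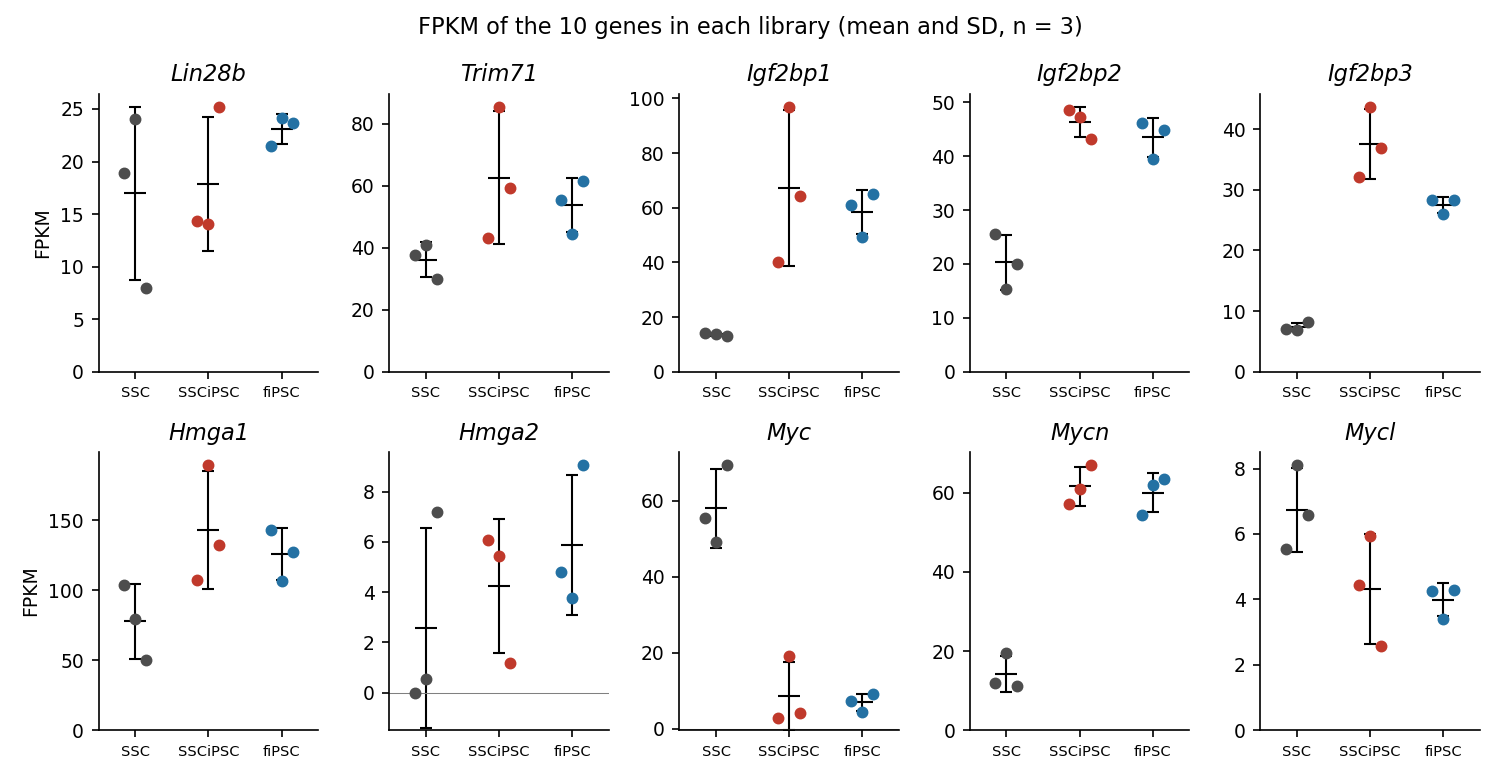
FPKM of each gene (vertical axis, scaled per gene) in the 3 libraries of SSC, SSCiPSC and fiPSC, with points for libraries 1 to 3 from left to right and bars for the mean and SD of 3. The iPSC points of Igf2bp1, Igf2bp2, Igf2bp3 and Mycn all sit above the SSC points, those of Myc all sit below, and the points of Lin28b and Hmga2 overlap.

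**Figure D3:**
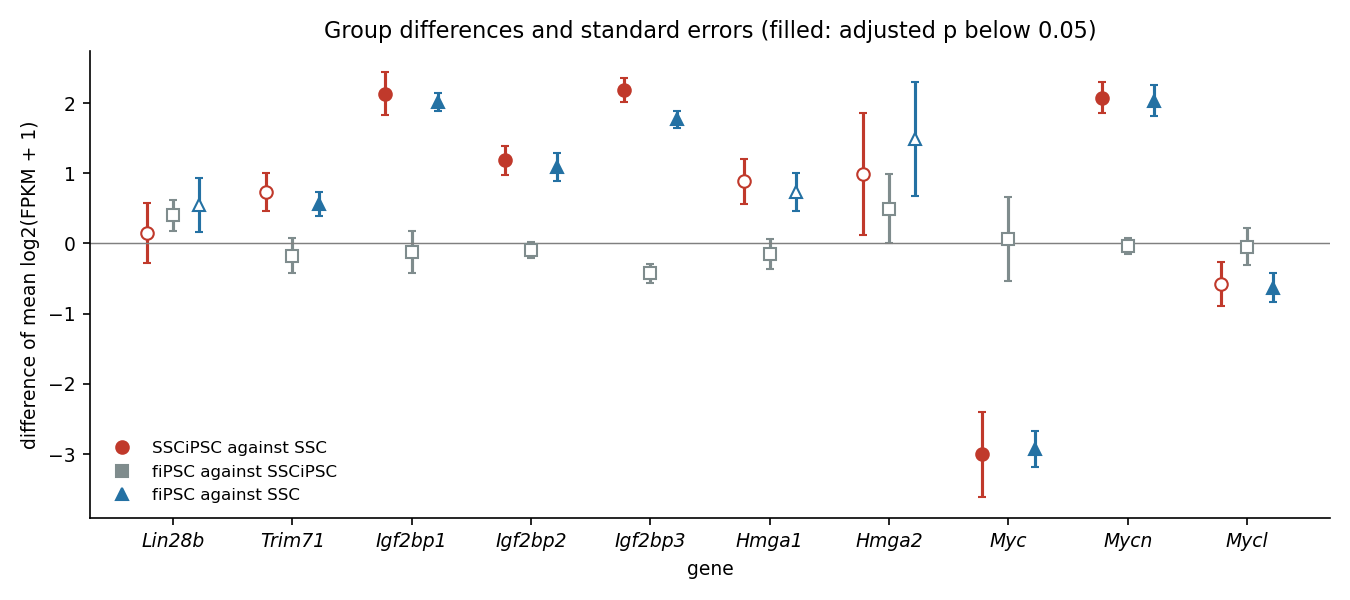
Difference of the group means of log2(FPKM + 1) with its standard error (vertical axis) for each gene in the 3 comparisons, with filled symbols where the limma adjusted p was below 0.05. The grey squares of fiPSC against SSCiPSC are all open and lie between -0.43 for Igf2bp3 and 0.50 for Hmga2.

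Lin28b, the let-7 blocker of this group, was already present in SSC and did not differ detectably between groups. The strand of a locus was inferred here from the order of the deposited table, which names none. The locus of Lin28b (chr10:45376559-45486510, minus strand) was read at 18.9, 24.1 and 7.93 FPKM in SSC 1 to 3, at 14.4, 14.1 and 25.2 FPKM in SSCiPSC 1 to 3, and at 21.5, 24.1 and 23.6 FPKM in fiPSC 1 to 3. The lowest and nearly the highest values both fell in SSC, and the groups overlapped throughout. SSCiPSC differed from SSC by 0.15 on the log2 scale (SE 0.43, limma adjusted p = 0.802) and fiPSC from SSC by 0.55 (SE 0.38, adjusted p = 0.273). The low value of SSC 3 rested on about 60 fragments, and without that library the differences were -0.29 and 0.11 (0.45 and 0.85 without SSC replicate 2, none past the threshold). A further 9 loci without strand shared the Lin28b interval, each with a mean of at most 2.38 FPKM.

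Trim71 (chr9:114506933-114562590, minus strand) lay at 37.6, 40.8 and 30.0 FPKM in SSC. It was read at 43.1, 85.5 and 59.2 FPKM in SSCiPSC and at 55.4, 44.3 and 61.6 FPKM in fiPSC. At this locus every iPSC value was above every SSC value, though the lowest iPSC value exceeded the highest SSC value only slightly. The groups overlapped at a locus without strand within the gene (chr9:114562718-114563438, mean 30.2 FPKM). There SSC 1 (31.2 FPKM) lay above SSCiPSC 1 and 3 (24.9 and 27.4 FPKM) and above fiPSC 2. They also overlapped at a plus-strand locus of the main interval (mean 5.6 FPKM). At another locus without strand (chr9:114563793-114565303, mean 12.8 FPKM) every iPSC value was above every SSC value. At the main locus the difference between fiPSC and SSC was 0.56 (SE 0.17, limma adjusted p = 0.0360) and passed. That between SSCiPSC and SSC was 0.73 (SE 0.27, adjusted p = 0.0590) and did not pass. These calls sat at the threshold. The fiPSC call was lost without SSC replicate 1 or 3 or fiPSC replicate 1 or 3 (adjusted p = 0.0617, 0.0753, 0.113 and 0.116) and with quantile normalization (adjusted p = 0.530), all 9 libraries in the fit (adjusted p = 0.0852), the replicate block (adjusted p = 0.0917) or a variance model without trend (adjusted p = 0.0645), while that of SSCiPSC was gained without SSCiPSC replicate 1 (adjusted p = 0.0238) and in 4 other settings.

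All 3 Igf2bp genes rose in both iPSC groups. Igf2bp1 (chr11:95956288-96007090, minus strand) was read at 14.0, 13.8 and 13.0 FPKM in SSC, at 40.0, 97.0 and 64.5 FPKM in SSCiPSC and at 61.0, 49.3 and 65.0 FPKM in fiPSC. The SSC libraries were nearly equal and all iPSC libraries were at least 2.86 times the highest of them. Igf2bp1 rose by 2.13 on the log2 scale in SSCiPSC (SE 0.31, limma adjusted p = 0.00173) and by 2.02 in fiPSC (SE 0.13, adjusted p = 0.000137).

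Igf2bp2 (chr16:22059071-22162981, minus strand) was the most abundant of the 3 in SSC, at 25.6, 15.3 and 20.0 FPKM. It was read at 48.6, 47.4 and 43.3 FPKM in SSCiPSC and at 46.3, 39.5 and 44.9 FPKM in fiPSC. The iPSC values were close together and lay above the SSC values, with a difference of 1.18 for SSCiPSC (SE 0.20, limma adjusted p = 0.00334) and 1.09 for fiPSC (SE 0.20, adjusted p = 0.00435). This was the smallest rise of the family.

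Igf2bp3 (chr6:49073724-49215555, minus strand) was the lowest of the family in SSC, at 7.10, 6.95 and 8.15 FPKM. It was read at 32.2, 43.7 and 36.9 FPKM in SSCiPSC and at 28.3, 26.0 and 28.3 FPKM in fiPSC. The 3 groups did not overlap, with SSC lowest and SSCiPSC highest. Igf2bp3 rose by 2.19 in SSCiPSC (SE 0.17, limma adjusted p = 0.000213) and by 1.77 in fiPSC (SE 0.12, adjusted p = 0.000158). Another 5 loci shared its interval, of which the plus-strand locus, where Malsu1 lies, had a mean of 5.90 FPKM. Summed over the family, SSC held 46.6, 36.0 and 41.2 FPKM, SSCiPSC 121, 188 and 145 FPKM and fiPSC 136, 115 and 138 FPKM. The share of Igf2bp2 in that sum was 48.6% ± 6.21 (SD, n = 3) in SSC, 31.8% ± 7.69 in SSCiPSC and 33.7% ± 1.03 in fiPSC, and that of Igf2bp1 was 33.3% ± 4.40, 43.1% ± 9.32 and 45.0% ± 2.04. The calls of the 3 Igf2bp genes against SSC passed in all 17 alternatives run for each.

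Hmga1, the AT-hook chromatin protein with the highest level of the 10 genes, was read at 104, 79.2 and 50.3 FPKM in SSC (chr17:27555574-27565792, plus strand). It was read at 107, 189 and 132 FPKM in SSCiPSC and at 143, 107 and 127 FPKM in fiPSC. Neither iPSC group overlapped SSC, but the lowest value of each was hardly above SSC 1, and the iPSC groups overlapped each other. The differences were 0.89 for SSCiPSC (SE 0.32, limma adjusted p = 0.0573) and 0.74 for fiPSC (SE 0.27, adjusted p = 0.0648), and neither passed. Without SSC replicate 1 both passed (1.12 with adjusted p = 0.0311, and 0.97 with adjusted p = 0.0209), with median-ratio scaling both passed as well, and with quantile normalization they were 0.01 and -0.02. The single-exon near-copy Hmga1b (chr11:120762498-120764397) was read at 59.5, 63.6 and 69.8 FPKM in SSC, at 108, 201 and 147 FPKM in SSCiPSC and at 145, 121 and 153 FPKM in fiPSC. Its difference of 1.19 for SSCiPSC (adjusted p = 0.00580) and 1.11 for fiPSC (adjusted p = 0.000677) passed the test. Because 98.3% of the Hmga1b transcript lies in stretches of 50 bases or more that are identical to Hmga1, the split of reads between the 2 loci is uncertain, and how many reads fit both was not measured here. The Hmga1 locus also overlaps AI413582 on the opposite strand.

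Hmga2, the relative of Hmga1 that marks embryonic and many proliferating cells, was the lowest or second lowest of the 10 genes in every group. It was at 0 in SSC 1, at 0.545 FPKM in SSC 2 and at 7.17 FPKM in SSC 3 (chr10:120360959-120476298, minus strand). The value in SSCiPSC was 6.09, 5.43 and 1.18 FPKM and that in fiPSC 4.81, 3.78 and 9.05 FPKM. SSC 3 thus lay above 5 of the 6 iPSC libraries and the other SSC libraries below all of them, and the 2 low ones rested on 0 and about 10 fragments. A count of 0 in SSC 1 allows up to 0.445 FPKM, the level of 3 fragments, for counting error only. The differences were 0.99 for SSCiPSC (SE 0.87, limma adjusted p = 0.387) and 1.49 for fiPSC (SE 0.81, adjusted p = 0.174). At so low a level the size depends on the pseudocount, and with 0.1 in place of 1 they were 2.18 and 2.85, neither past the threshold (adjusted p = 0.313 and 0.182). SSC 3, the library with the highest mast cell, macrophage and fibroblast sums, decided whether Hmga2 was called. Without that library Hmga2 was higher by 1.90 in SSCiPSC (adjusted p = 0.0396) and by 2.39 in fiPSC (adjusted p = 0.00552). Without SSC replicate 1 the SSCiPSC difference was 0.38 (adjusted p = 0.746). The lowest fiPSC difference with 1 library left out was 0.88. The antisense genes 1700006J14Rik and 9230105E05Rik lie within its interval.

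The Myc genes exchanged places between SSC and iPSC. Myc (chr15:61985346-61990271, plus strand) was read at 55.6, 49.1 and 69.3 FPKM in SSC, at 2.81, 19.0 and 4.11 FPKM in SSCiPSC and at 7.16, 4.49 and 9.07 FPKM in fiPSC. All iPSC values lay below all SSC values, with SSCiPSC 2 standing above its group. Myc fell by 3.0 on the log2 scale in SSCiPSC (SE 0.60, limma adjusted p = 0.00665) and by 2.93 in fiPSC (SE 0.26, adjusted p = 0.000287). Without SSCiPSC replicate 2 the first difference was -3.73 (adjusted p = 0.0013).

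Mycn (chr12:12936030-12943328, minus strand) moved the other way. It was read at 12.0, 19.5 and 11.3 FPKM in SSC, at 57.2, 61.0 and 67.0 FPKM in SSCiPSC and at 54.4, 62.1 and 63.5 FPKM in fiPSC. The iPSC libraries lay within a narrow band well above SSC. Mycn rose by 2.08 in SSCiPSC (SE 0.22, limma adjusted p = 0.000565) and by 2.04 in fiPSC (SE 0.22, adjusted p = 0.000546). The calls of Myc and Mycn against SSC passed in all 17 alternatives run for each.

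Mycl (chr4:122996035-123002518, plus strand), the third gene of the family, was low throughout, at 5.54, 8.10 and 6.58 FPKM in SSC. It was read at 4.45, 5.92 and 2.57 FPKM in SSCiPSC and at 4.26, 3.40 and 4.30 FPKM in fiPSC. The fiPSC values lay below all SSC values and the SSCiPSC values overlapped them. Mycl fell by 0.63 in fiPSC (SE 0.21, limma adjusted p = 0.0463), a call that was lost in 10 of the 17 alternatives, among them those without fiPSC replicate 1, 2 or 3 (adjusted p = 0.107, 0.137 and 0.0981) or SSC replicate 2 or 3 (adjusted p = 0.0953 and 0.0660). For SSCiPSC the difference was -0.58 (SE 0.31, adjusted p = 0.167).

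The sum of the 3 Myc genes was 79.0 ± 7.31 FPKM in SSC, 74.7 ± 10.8 FPKM in SSCiPSC and 70.9 ± 5.62 FPKM in fiPSC (SD, n = 3), and the groups overlapped, while the makeup of the sum turned over. Myc made up 73.2% ± 8.13 of the sum in SSC, 10.7% ± 9.94 in SSCiPSC and 9.70% ± 2.89 in fiPSC. Mycn made up 18.3% ± 6.45, 83.5% ± 11.0 and 84.7% ± 3.53. Within each library, log2 of (Mycn + 1)/(Myc + 1) was -2.12, -1.29 and -2.52 in SSC, 3.93, 1.63 and 3.73 in SSCiPSC, and 2.76, 3.52 and 2.68 in fiPSC. The ratio was below 0 in every SSC library and above 0 in every iPSC library. The group means differed by 5.08 between SSCiPSC and SSC and by 4.97 between fiPSC and SSC (exact two-sided permutation test, p = 0.1 each, the smallest that 3 against 3 can give). Between fiPSC and SSCiPSC they differed by -0.11 (exact permutation p = 0.9).

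**Figure D4:**
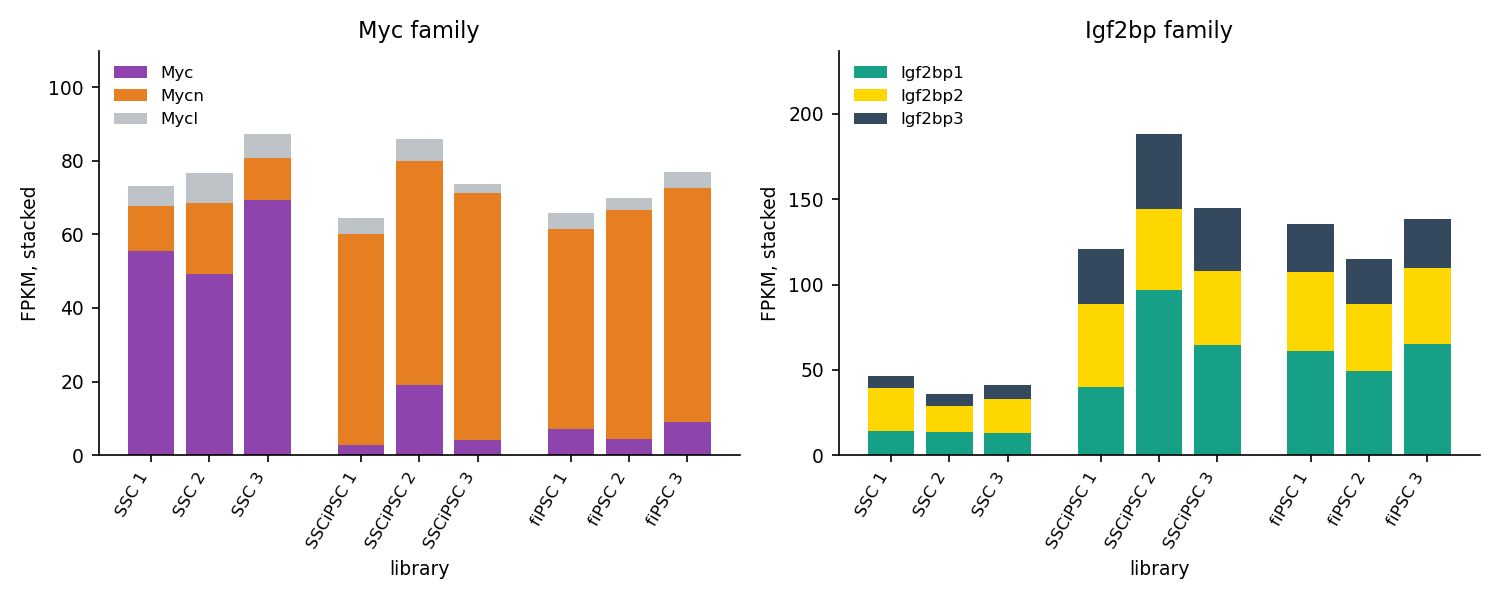
Stacked FPKM (vertical axis) of the Myc genes and of the Igf2bp genes in each of the 9 libraries. The Myc family bars keep a like height from 64.5 to 87.2 FPKM while Myc gives way to Mycn in the iPSC, and the Igf2bp bars grow from at most 46.6 FPKM in SSC to between 115 and 188 FPKM in the iPSC.

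Between the iPSC of different origin, fiPSC and SSCiPSC, none of the 10 genes was called by limma, and 1 had an unadjusted p below 0.05. The background was also low, with 0.0678% of 33948 loci called, and 3988 loci had an unadjusted p below 0.05. The exception before adjustment was Igf2bp3, lower by 0.43 in fiPSC (SE 0.14, adjusted p = 0.324), whose 2 groups did not overlap, as was the case for 18.6% of the loci. Differences of the other genes ranged from -0.17 for Trim71 (SE 0.25) to 0.50 for Hmga2 (SE 0.49), and their groups overlapped. For Mycn and Igf2bp2 the standard error was 0.11, so a difference of the size seen against SSC would have been large beside it. For Myc it was 0.60, because of SSCiPSC 2, and here the ratio of the mean FPKM (0.799) and the log2 difference (0.07) went in opposite directions. SSCiPSC 2 had the highest value of its group in 6 of the 10 genes, and fiPSC 2 the lowest of its group in 8. In sign, Trim71, Igf2bp1, Hmga1 and Mycl turned to higher in fiPSC without SSCiPSC replicate 2.

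The order of the genes by mean level also changed from SSC to iPSC. In SSC, Hmga1 (77.9 FPKM) and Myc (58.0 FPKM) led, with overlapping values, and Trim71 (36.2 FPKM) followed without overlap with its neighbours. Igf2bp2, Lin28b, Mycn and Igf2bp1 formed a run from 20.3 to 13.6 FPKM in which each overlapped the next. Igf2bp3 and Mycl (7.40 and 6.74 FPKM) overlapped below them, with Hmga2 last. In both iPSC groups Hmga1 led alone, at 143 FPKM in SSCiPSC and 126 FPKM in fiPSC. Igf2bp1, Trim71 and Mycn came next, with means between 53.8 and 67.1 FPKM and overlapping values. Igf2bp2 and Igf2bp3 followed, then Lin28b, and Myc, Mycl and Hmga2 closed the order, overlapping their neighbours.

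For Lin28b, Hmga2 and Myc, the genes with the most similar profile were taken as those with the smallest Euclidean distance of log2(FPKM + 1) over the 9 libraries among 10660 other named genes. This is a description, since the 9 points share libraries and depth. Nearest to Lin28b was Ddhd2, a phospholipase (distance 0.94), then Fdps, an enzyme of isoprenoid synthesis (0.98), Apba3 (0.98) and Cntrob (0.99). Nearest to Myc was Kdm6b, a demethylase of histone H3 lysine 27 (1.47), at 54.3, 45.8 and 56.0 FPKM in SSC and 4.03 to 8.41 FPKM in the iPSC, then Rapgef2 (1.84), Zswim4 (1.86) and Magi3 (1.98). Nearest to Hmga2 were Dcxr (1.54), Acap1 (1.72), Slc15a2 (1.77) and Bcl2l14 (1.89), low genes that were also lower in SSC 1 and 2 than in SSC 3. Their values in SSC 1 and 2 were at most 0.66 FPKM, except for Slc15a2 at 1.30 FPKM in SSC 2.

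The partners of these genes were followed with 7 lists, in which a locus could be assigned to 58 of 76 listed genes, 7 of them at a locus that also holds another gene. In fiPSC against SSCiPSC no tested gene of any list passed the limma test, and Igf1, Irs1, Igfbp5 and Igfbp6 were below its filter there. Against SSC, the list of let-7 processing genes had 4 higher and 2 lower of 11 in SSCiPSC, beside 26.2% and 24.1% of all loci, and its median difference was 0.48 (all loci 0.11). All 11 genes had a mean above 5 FPKM, and loci of that level had 38.2% higher, 19.4% lower and the same median of 0.48. Lin28a, the close relative of Lin28b, rose from 40.6 ± 7.30 FPKM (mean ± SD, n = 3, as for the other list genes) in SSC to 96.1 ± 46.3 FPKM in SSCiPSC and 80.8 ± 19.6 FPKM in fiPSC (differences 1.14 and 0.96, limma adjusted p = 0.0280 and 0.0134). Its call in SSCiPSC was lost without SSC replicate 1 or 3 or SSCiPSC replicate 3 (adjusted p = 0.0515, 0.0723 and 0.0528), and that in fiPSC without fiPSC replicate 1 or 3 (adjusted p = 0.0572 and 0.0513). Ago3, an Argonaute protein that carries microRNAs, fell from 18.5 ± 9.09 to 6.93 ± 0.754 FPKM in SSCiPSC (-1.19, adjusted p = 0.0301), a call lost without SSC replicate 2 or SSCiPSC replicate 1, 2 or 3 (adjusted p = 0.0690, 0.0957, 0.0851 and 0.0742). Dgcr8, the partner of Drosha in cutting primary microRNAs, and Xpo5, the exporter of precursors, were called higher by 2.16 and 0.95 (adjusted p = 0.000123 and 0.00252), but their loci also hold Ranbp1 and Yipf3 on the same strand. Without the 3 loci that hold another gene (that of Tut7 with Isca1 as well), 2 of 8 were higher and 1 lower. Drosha, Dicer1, Tarbp2, Tut4 and Dis3l2 did not pass. With 1 library left out the counts ran from 2 to 5 higher and from 0 to 2 lower of 11, with 2 higher without SSC replicate 1 or SSCiPSC replicate 3, and none lower without SSC replicate 2 or any of the 3 SSCiPSC libraries.

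Other known let-7 targets did not move as a block. In SSCiPSC against SSC, 4 were higher and 6 lower of 12, beside 26.2% and 24.1% of all loci, with a median of -0.41. Without Arid3b, whose locus also holds Clk3, the counts were 4 and 5 of 11 and the median turned to 0.14. The match to the let-7 seed was in the 3′ UTR of 10 of the 13 listed genes. Cdc25a, a phosphatase that drives the cell cycle, rose by 2.04 (7.97 ± 1.50 to 36.0 ± 5.84 FPKM, limma adjusted p = 0.000419). Ccnd2, a D-type cyclin, fell by 3.96 (34.0 ± 0.579 to 1.29 ± 0.527 FPKM, adjusted p = 9.58e-05) and Tgfbr1, a receptor of TGF-beta, by 2.06 (27.9 ± 4.74 to 5.91 ± 0.407 FPKM, adjusted p = 0.000289). In fiPSC against SSC the counts were 3 higher and 6 lower, beside 28.0% and 23.7% of all loci, with a median of -0.48 (-0.15 without Arid3b).

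Growth genes known as Myc targets were nearly all higher in iPSC. In SSCiPSC against SSC, 11 of 12 were higher and none lower (median 1.36), and in fiPSC against SSC 10 of 12 (median 1.24). Of all loci, 26.2% and 28.0% were called higher, with medians of 0.11 and 0.17. Among loci whose mean reached 5 FPKM, 38.2% and 38.8% were called higher, with medians of 0.48 and 0.43. Ldha, lactate dehydrogenase, rose from 28.0 ± 3.75 FPKM in SSC to 544 ± 185 FPKM in SSCiPSC and 618 ± 18.0 FPKM in fiPSC (differences 4.17 and 4.42, limma adjusted p = 0.000147 and 1.38e-05). Npm1, the nucleolar chaperone nucleophosmin, rose by 2.59 in SSCiPSC (213 ± 35.2 to 1278 ± 21.7 FPKM), Srm, spermidine synthase, by 2.15 and Cdk4, a kinase of the cell cycle, by 1.88 (adjusted p = 0.000109, 0.00199 and 0.000155). Eif4e, the cap-binding initiation factor, did not pass (0.15, adjusted p = 0.436). The count in SSCiPSC was 8 to 10 with 1 library left out, and 9 of 10 without the loci of Fbl and Cad, which hold another gene.

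Of the Max network, the partners and antagonists of Myc, 1 gene was higher and 2 were lower of 6 in SSCiPSC against SSC (median -0.03), beside 26.2% and 24.1% of all loci, and Max itself had no locus of its own. In fiPSC against SSC limma called none higher and 2 lower (median 0.18), beside 28.0% and 23.7% of all loci, with Mxd1 at 0.54 (adjusted p = 0.102). Mxd4, a Max partner that represses Myc targets, fell by 2.88 (15.6 ± 6.51 to 1.13 ± 0.403 FPKM, limma adjusted p = 0.00125) and Mlxip, a glucose-sensing relative, by 1.61 (14.7 ± 0.958 to 4.18 ± 0.835 FPKM, adjusted p = 0.000985). Mxd1 was called higher by 0.72 (adjusted p = 0.0368) at a locus that also holds Snrnp27, and this call was lost without SSC replicate 1 or 3 or any of the 3 SSCiPSC libraries (adjusted p from 0.0629 to 0.115).

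The insulin-like growth factor (IGF) pathway, for whose ligand transcript the Igf2bp genes are named, was mostly lower. In SSCiPSC against SSC, 1 gene was higher and 9 lower of 11, beside 26.2% and 24.1% of all loci, with a median of -2.57, and the counts were the same in fiPSC against SSC (median -2.32), beside 28.0% and 23.7%. Of the lower genes, Igf1, Irs1, Igfbp5 and Igfbp6 were below 1 FPKM in every iPSC library. They passed the filter only through SSC and could only be called lower, so these counts and medians were partly set by the filter. The median of -2.57 is the value of Igf1. Igf1r, Insr, Irs2, Igfbp3 and Igfbp7, above 1 FPKM in every iPSC library, were called lower in both comparisons. Igfbp2, a secreted IGF-binding protein, rose by 4.17 (35.1 ± 15.5 to 618 ± 92.6 FPKM, limma adjusted p = 0.000170). Its relatives Igfbp7, Igfbp6 and Igfbp3 fell (differences -4.08, -3.82 and -3.78, adjusted p = 8.12e-05, 0.000125 and 5.00e-05), from 145 ± 29.8, 17.0 ± 3.20 and 91.1 ± 12.3 FPKM in SSC. In the same comparison 7 of 8 Sertoli markers (all but Rhox5), 9 of 13 germ line markers, 3 of 3 Leydig markers, 4 of 6 macrophage markers and 5 of 6 mast cell markers (all but Kit) were called lower, as were 4 of 6 peritubular myoid, 4 of 6 endothelial and 4 of 8 fibroblast markers. Many of these were below 1 FPKM in every SSCiPSC library, so they entered the test only through SSC and could only be called lower. Among them were Cst12, Defb19, Sox9, Wt1, Gata4 and Dhh, the 3 Leydig markers, Csf1r, Mrc1 and C1qa. Tpsab1, Tpsb2, Cpa3, Mcpt4 and Cma1, and Gfra1, Zbtb16, Ret and Sohlh1, were others. These counts were therefore partly set by the filter. Cd68 of the macrophage list was at 8.94 FPKM in SSC and 10.8 FPKM in SSCiPSC, while Pecam1 of the endothelial and Fn1 of the fibroblast list rose (limma adjusted p = 0.0113 and 0.000383). Among the germ line markers Gfra1, by which SSC were sorted, fell by 4.85 and Zbtb16 fell by 5.97 (adjusted p = 7.16e-05 and 3.11e-05), while Etv5, Kit and Sall4 rose. The part of these cell types in the differences of the IGF genes was not tested. Igf2, Igf2r and Igfbp1 had no locus of their own.

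Of the other high mobility group genes, 2 were higher and 2 lower of 4 in both comparisons with SSC, beside 26.2% and 24.1% of all loci for SSCiPSC and 28.0% and 23.7% for fiPSC. Hmgb2, a DNA-bending protein of proliferating cells, rose by 2.88 in SSCiPSC (33.1 ± 5.48 to 251 ± 46.8 FPKM, limma adjusted p = 0.000125) and Hmgn1, a nucleosome-binding protein, by 1.02 (143 ± 14.4 to 294 ± 47.8 FPKM, adjusted p = 0.00227). Hmgn3 and Hmgb3 fell by 1.64 and 1.26 (adjusted p = 0.00233 and 0.00492). Of the reprogramming factors encoded with Myc on the cassette, Pou5f1 rose by 5.72 in SSCiPSC (13.0 ± 2.92 to 733 ± 125 FPKM, adjusted p = 2.57e-05) and by 5.52 in fiPSC (632 ± 58.8 FPKM, adjusted p = 1.89e-05), and Klf4 rose by 1.01 and 0.63 (44.2 ± 6.67 FPKM in SSC, 90.1 ± 17.5 and 69.0 ± 9.22 FPKM in the iPSC, adjusted p = 0.00468 and 0.0148). Sox2 had no locus of its own. Of the factors on the cassette with a locus, Myc alone was lower in iPSC than in SSC. For each of them, RNA of the cassette and of the endogenous gene cannot be told apart.

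**Figure D5:**
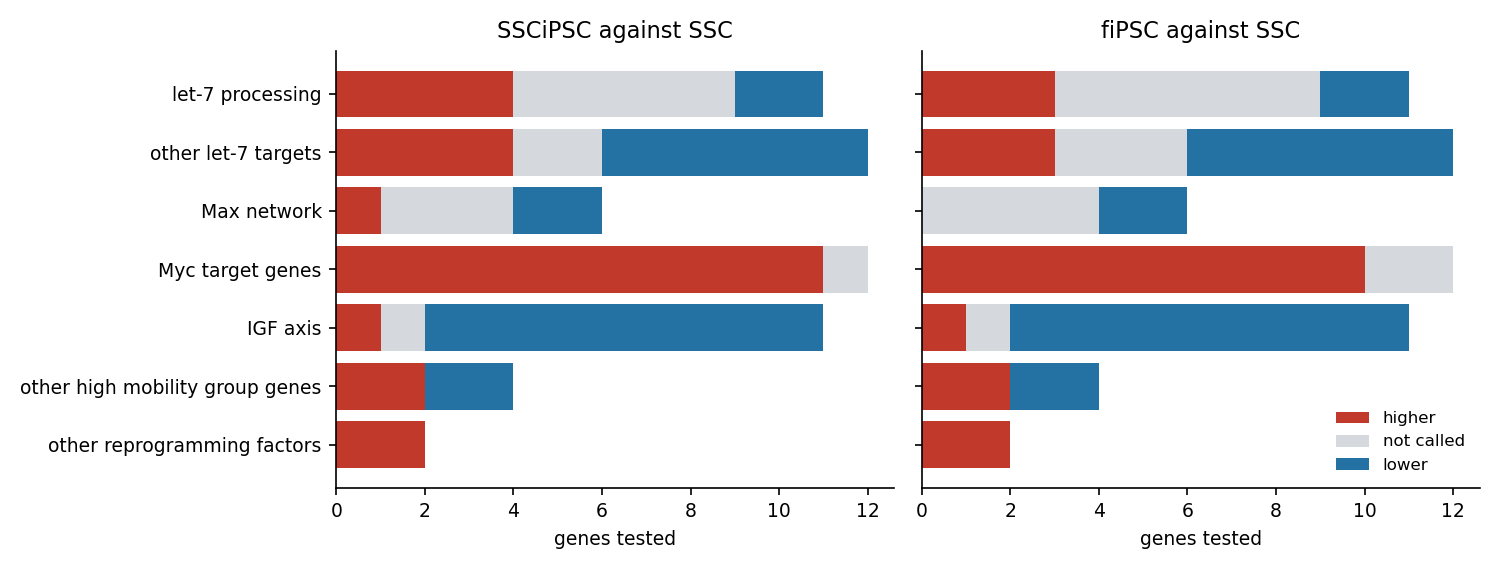
Number of tested genes (horizontal axis) of each list called higher, lower or not called at a limma adjusted p below 0.05, for SSCiPSC against SSC and fiPSC against SSC, with the IGF ligands, receptors and binding proteins written as IGF axis. The Myc targets hold 11 and 10 higher genes of 12 and the IGF axis 9 lower genes of 11 in each comparison. Igf1, Irs1, Igfbp5 and Igfbp6 of the IGF axis passed the filter only through SSC and could only be called lower.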

How the data were processed

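Per the submitters' notes and methods, the authors trimmed paired reads (Trimmomatic 0.32), aligned them (TopHat2 2.0.9, Bowtie2 2.1.0) and assembled and quantified loci with Cufflinks 2.2.1, and the deposited values are FPKM per locus and library, headed RPKM. The table names no strand: each chromosome holds 3 runs of loci sorted by start, read here as plus, minus and unstranded (70.2% of loci). The notes name mm9, but of 3038 loci with a strand so inferred and whose ends lay within 300 bp of a GRCm38 gene 98.1% had its strand, so GRCm38 coordinates (GENCODE M21) were used. Libraries were prepared with ribosomal depletion and a stranded kit per the labels, while the study's methods describe a stranded kit for mRNA. Whether the counting used strand is not given in the sources used here. A gene was assigned the locus that shared at least 50% of its span with it both ways and had the highest mean of the 9 libraries. No deposited per-sample column was left unused. The 10 genes and all lists were chosen with earlier results of these data known. By rule, the 4 genes with the largest called change in SSCiPSC against SSC were named per list, and other list genes were named after their values were seen. A gene of the let-7 target list that the rule names is not reported here.

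Groups were compared in pairs with limma 3.58.1 (R 4.3.3, eBayes with trend) on log2(FPKM + 1), a scale that shrinks differences of low genes, with Benjamini-Hochberg adjustment over all loci of at least 1 FPKM in 3 of 6 libraries. The test was checked on data with known changes. Alternatives were another pseudocount, filter, scaling, variance model, sample set, locus choice or threshold, a replicate block, and leaving out each library.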

Additional observations from a re-analysis of the deposited data

How the results depend on the processing

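The number of genes called among the 10 ran from 5 to 7 for SSCiPSC against SSC and from 5 to 8 for fiPSC against SSC, and was 0 for fiPSC against SSCiPSC in each alternative run. Without SSC replicate 3 it was 6 in both comparisons with SSC. Median-ratio scaling raised the median of all loci by 0.15 (SSCiPSC against SSC) and 0.13 (fiPSC against SSC), and the sum of FPKM over all loci was 842000 to 869000 in SSC and 1110000 to 1420000 in the iPSC. With quantile normalization the sign turned for Lin28b in SSCiPSC against SSC (-0.0006), Hmga1 in fiPSC against SSC (-0.0228), and Igf2bp2 (0.003) and Mycn (0.0668) in fiPSC against SSCiPSC. Leaving out 1 library moved Lin28b in SSCiPSC against SSC from -0.29 to 0.45, and in fiPSC against SSCiPSC Trim71 from -0.41 to 0.0756, Igf2bp1 from -0.44 to 0.19, Hmga1 from -0.34 to 0.0706, Hmga2 from -0.0464 to 0.80, Myc from -0.40 to 0.80, Mycn from -0.0928 to 0.0278, Mycl from -0.31 to 0.17 and the log2 ratio of Mycn to Myc from -0.85 to 0.31, none past the threshold. Where 2 libraries were left in a group, the exact test cannot go below p = 0.2. The cause of these changes was not tested.

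Trim71 in SSCiPSC against SSC passed with median-ratio scaling, with all 9 libraries, with loci assigned to a strand only (an alternative added after seeing the data) and with the replicate block (adjusted p = 0.0325, 0.0316, 0.0245 and 0.0497). Hmga1 passed in the first 3 of these (adjusted p = 0.0303, 0.0271 and 0.0216). Libraries of the same number were not paired, since their deviations correlated between -0.236 and 0.0214. With the number as a replicate block 6, 0 and 5 of the 10 genes were called in SSCiPSC against SSC, fiPSC against SSCiPSC and fiPSC against SSC, and 16926, 6 and 17546 of all loci (18396, 23 and 19680 without it). A mean of at least 5 FPKM left 9707, 11 and 10158 called loci and no value for Hmga2, and loci assigned to a strand 9334, 28 and 9758. In fiPSC against SSCiPSC 11 loci were called with all 9 libraries, 9 at an adjusted p of 0.01 and 6 to 20 with 1 library left out. The locus with the longest overlap was the same for each gene. At the depth of SSC 1, an Hmga2 level under 0.445 FPKM could not be told from 0.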
